A study of Rattus norvegicus with 10 samples.

Results

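Synaptic vesicle release machinery genes were compared between RG2833-treated and untreated female TgF344-AD rats. Members were chosen by gene symbol alone: synaptotagmins (Syt), syntaxins (Stx), syntaxin-binding proteins (Stxbp), vesicle-associated membrane proteins (Vamp), synapsins (Syn), Snap proteins, Sv2 proteins, complexins (Cplx), Rims and Unc13 genes, and Syp, Bsn, Pclo and Nsf. The rule found 70 of the 17168 genes in the count table, and 64 of the 70 passed a filter on low counts. Stx and Vamp symbols also include SNAREs of endosomes, lysosomes, the Golgi and the endoplasmic reticulum, so the set is wider than the synapse. TgF344-AD rats are transgenic animals that model Alzheimer's disease, and RG2833 is a small molecule described by its depositors as an inhibitor of the histone deacetylases HDAC1 and HDAC3. All 10 animals were female, carried the transgene and were killed at 11 months of age, when the left hippocampus was taken. The 5 untreated animals ate ordinary chow. The 5 RG2833 animals ate chow with 750 mg of RG2833 per kg for 6 months from 5 months of age, and a blue food dye served to tell the chows apart. No wild-type animals were analysed here, so the effect of the transgene cannot be read from these values.

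Neurons store transmitter in synaptic vesicles and release it when vesicles fuse with the membrane of the nerve terminal. Fusion is driven by SNARE proteins: a vesicle SNARE (Vamp) zippers with syntaxin and Snap25 on the plasma membrane. Munc13 (Unc13) proteins guide the assembly, complexins hold the partly zippered complex, and synaptotagmins trigger fusion when calcium enters. Rim, Bassoon and Piccolo build the active zone where vesicles dock, synapsins tether the reserve of vesicles, and Nsf takes used SNARE complexes apart.

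Libraries held between 8764245 and 11311652 counts, so that 3 counts corresponded to between 0.268 and 0.343 CPM, the counts scaled to a common library total. All levels below are CPM scaled by TMM (trimmed mean of M values, which corrects library totals on the assumption that most genes do not change). CPM is not corrected for gene length and is therefore compared between groups, not between genes. On the first principal component of all tested genes, untreated replicate 4 had a score of 11.5 and lay among the RG2833 animals (9.18 to 25.3), apart from the other untreated animals (-27.8 to -13.8). Ribosomal RNA loci took a share of counts that was 2.70 to 5.36% in untreated and 1.13 to 1.96% in RG2833 libraries, without overlap. The general neuron markers were present in every animal, with summed levels of 5891 to 8495 CPM in the untreated and 7332 to 8708 CPM in the RG2833 animals. Of the 14 neuron markers, 2 were called higher (Rbfox3, log2 fold change 0.57, and Elavl3, 0.36), and untreated replicate 2 had the lowest neuron score, -0.45 log2 units from the mean of all animals. Summed levels of 7 excitatory neuron markers were 1533 to 2429 CPM in the untreated and 2553 to 2982 CPM in the RG2833 animals, without overlap, and 6 of the 7 log2 fold changes were positive (median 0.51), although none of the 7 was called. Slc17a7 made up most of these sums, with means of 1626 CPM in the untreated and 2081 CPM in the RG2833 animals. It did not overlap between the groups, while each of the other excitatory markers did. Of 8 vascular markers none had a positive log2 fold change (median -0.28, none called), with sums of 250 to 358 CPM in the untreated and 228 to 252 CPM in the RG2833 animals. Of 8 microglia markers 1 was positive (median -0.24) and 1 was called lower (Aif1). Positive values were found in 8 of 8 oligodendrocyte markers (median 0.13), 3 of 10 inhibitory neuron markers (median -0.13), 4 of 8 astrocyte markers and 1 of 5 oligodendrocyte precursor markers, none called. Of 3 tested choroid plexus markers 1 was called lower (Prlr, log2 fold change -0.86, adjusted p = 0.0394, without overlap), and the 8 listed ones summed to between 10.0 and 2497 CPM in the untreated and between 6.68 and 49.3 CPM in the RG2833 animals, the highest sum being that of untreated replicate 1 (Ttr at 2381 CPM there and at 3.80 to 14.8 CPM in untreated replicates 2 to 5). No marker of the 9 lists was at 0 in every animal. In whole hippocampus, fewer cells of a type and less RNA per cell cannot be told apart.

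RG2833 animals differed from untreated animals in few release machinery genes. Cplx2, which encodes complexin 2, and Syn1, which encodes synapsin 1, rose, while Stx7, which encodes a late endosomal syntaxin, fell. These were the 3 of 64 tested members (4.69%) called at an adjusted p under 0.05 in edgeR's quasi-likelihood test with Benjamini-Hochberg adjustment over all 11791 tested genes. Of all tested genes 5.08% were called, 2.41% higher and 2.67% lower, so the members' share was near the background. In the same 3 members the groups did not overlap, against 7.27% of all genes. An unadjusted p under 0.05 was reached by 18 of 64 members (28.1%), 12 higher and 6 lower, against 24.5% of all genes. The median log2 fold change of the 64 members was 0.05, with an interquartile range of -0.10 to 0.24, and 35 of them (54.7%) were positive. This median was 0.01 without untreated replicate 4 and 0.12 without untreated replicate 5, the lowest and highest over the fits that left out an animal. Over all tested genes 49.4% were positive and the interquartile range was -0.16 to 0.15. In 34 of the 64 members (53.1%) the log2 fold change lay within 0.2 of 0, against 60.7% of all tested genes.

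**Figure D1:**
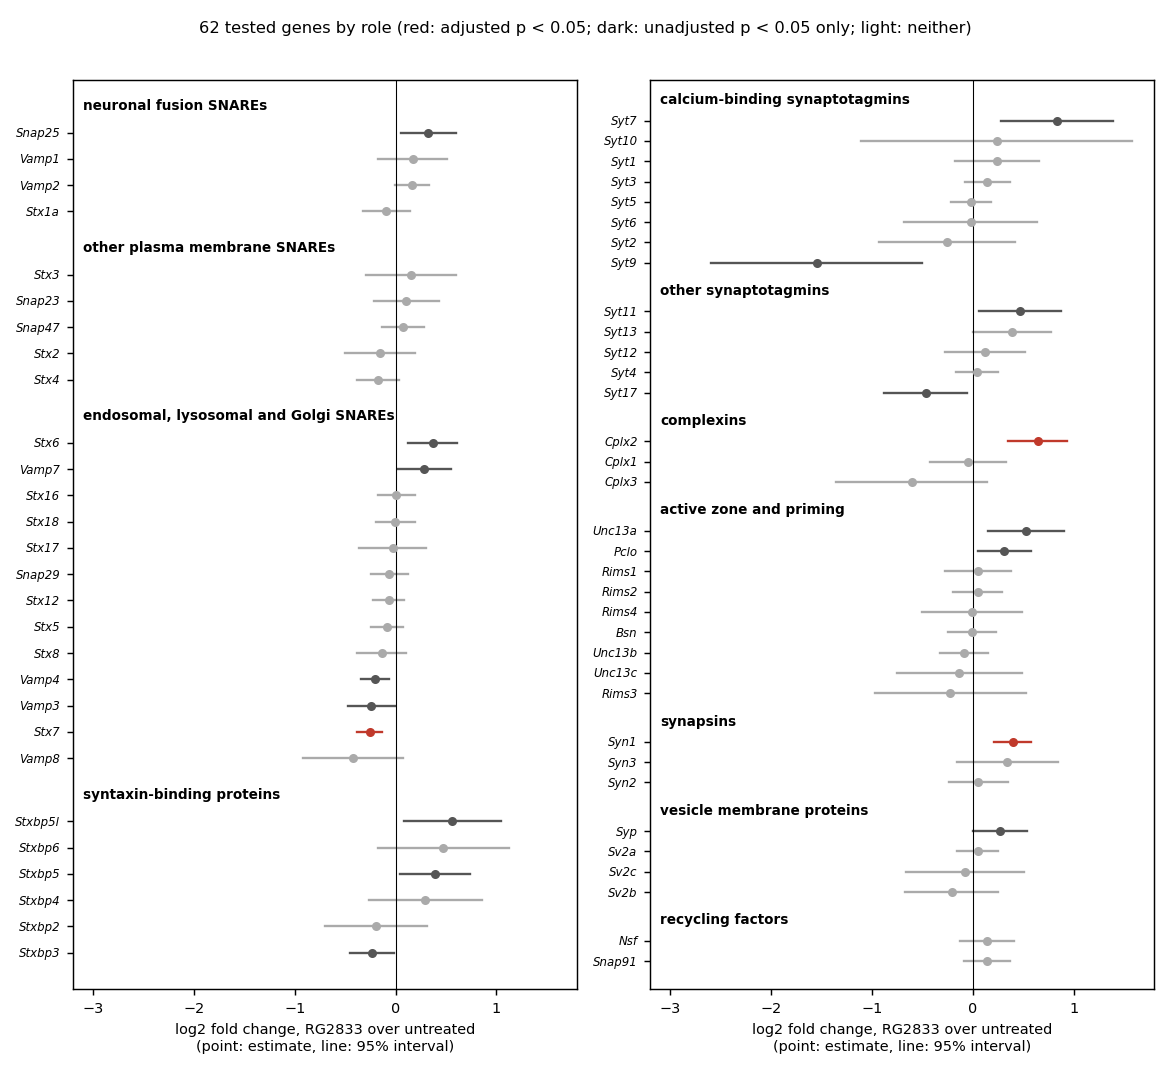
Log2 fold change (RG2833 minus untreated) of 62 tested members, grouped by role, with 95% intervals from the edgeR fit on 5 animals a group. Only Cplx2 and Syn1 on the right of 0 and Stx7 on the left passed an adjusted p of 0.05.

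To show the sequence beside the values, the 250 bases before the RefSeq transcription start (assembly GRCr8) are printed for the 3 called members. Each is given 5′ to 3′ on the strand of its gene. The Cplx2 window is chr17:10236754-10237003 (minus strand, 50.8% GC), the Stx7 window is chr1:23056466-23056715 (minus strand, 58.4% GC) and the Syn1 window is chrX:3725495-3725744 (plus strand, 69.6% GC). Capitals mark matches to the motifs searched: TGACGTCA (the cAMP response element), GCGTGGGCG (an Egr site) and CAGCACC (part of the RE1 element bound by REST), on both strands.
Cplx2: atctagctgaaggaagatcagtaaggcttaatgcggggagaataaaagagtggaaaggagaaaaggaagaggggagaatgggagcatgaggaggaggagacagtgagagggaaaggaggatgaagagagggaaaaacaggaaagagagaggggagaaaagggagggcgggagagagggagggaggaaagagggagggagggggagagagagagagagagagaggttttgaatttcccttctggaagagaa
Stx7: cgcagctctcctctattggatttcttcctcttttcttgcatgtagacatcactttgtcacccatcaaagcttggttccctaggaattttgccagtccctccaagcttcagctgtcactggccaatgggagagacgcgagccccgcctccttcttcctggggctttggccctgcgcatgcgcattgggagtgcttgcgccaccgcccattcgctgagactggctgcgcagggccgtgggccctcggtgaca
Syn1: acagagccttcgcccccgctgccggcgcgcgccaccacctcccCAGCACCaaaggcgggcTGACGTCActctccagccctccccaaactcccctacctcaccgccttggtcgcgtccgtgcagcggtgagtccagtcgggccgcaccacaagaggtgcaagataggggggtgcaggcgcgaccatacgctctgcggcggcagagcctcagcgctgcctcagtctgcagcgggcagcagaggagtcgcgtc
In Syn1, TGACGTCA lay 190 to 183 bases and CAGCACC 207 to 201 bases before the start. The Cplx2 and Stx7 windows held none of the 3 motifs, which says only that these letters are not in these windows. The Cplx2 window held 2 CpG dinucleotides, against 12 in Stx7 and 24 in Syn1. RefSeq windows were found for 55 of the 70 members, 56 windows in all because Unc13b had 2. TGACGTCA was found in 2 member windows (Syn1 and Vamp1, 3.57%) against 1.59% of all 33469 windows of this length. GCGTGGGCG was found in 1 (Vamp2, 1.79%) against 0.478%, and CAGCACC in 6 (Bsn, Stx18, Sv2b, Syn1, Syt15 and Syt4, 10.7%) against 5.43%. Member windows had a median GC content of 62.2% and a median of 16.5 CpG dinucleotides, against 51.2% and 5 over all windows. These matches describe the sequences, and neither binding nor histone acetylation was measured.

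Complexin 2 is the complexin of most forebrain excitatory synapses, where it clamps and then assists SNARE-driven fusion. In untreated replicates 1 to 5, Cplx2 was at 182, 221, 234, 273 and 250 CPM, and in RG2833 replicates 1 to 5 at 339, 306, 340, 336 and 487 CPM. Every RG2833 animal was above every untreated animal, and RG2833 replicate 5 stood above the other 4. The mean rose from 232 ± 34.1 to 362 ± 71.5 CPM (SD, n = 5 each), a log2 fold change of 0.64 ± 0.14 (SE; 95% interval 0.35 to 0.93; edgeR adjusted p = 0.0258). Without RG2833 replicate 5 the log2 fold change of Cplx2 was 0.51 (adjusted p = 0.0558). The call also ended without untreated replicate 1 (0.0522), 2 (0.0508) or 3 (0.0656) and without RG2833 replicate 1 (0.054) or 3 (0.0602), where the values are adjusted p. Cplx1, the complexin of many inhibitory and brainstem synapses, was at 720, 485, 907, 458 and 711 CPM in the untreated and at 684, 659, 529, 735 and 568 CPM in the RG2833 animals. The groups overlapped fully, and the log2 fold change of -0.05 (95% interval -0.42 to 0.33) did not pass the test (adjusted p = 0.892). Cplx3, a complexin of retina and of a few cortical neurons, had a log2 fold change of -0.61 (adjusted p = 0.296). It was at 11.2, 31.6, 6.58, 9.21 and 11.95 CPM in the untreated and at 9.63, 9.45, 7.75, 9.62 and 9.73 CPM in the RG2833 animals. Untreated replicate 2 was far above the others, and without this animal the log2 fold change of Cplx3 was -0.07. Cplx4 was not tested, with 0 to 23 counts per library.

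Synapsins coat vesicles and hold them in the reserve pool. Syn1 was at 1270, 1152, 1160, 1163 and 1220 CPM in the untreated and at 1863, 1504, 1421, 1513 and 1534 CPM in the RG2833 animals. The untreated animals lay close together, all 5 RG2833 animals were above them, and RG2833 replicate 1 was the highest. The mean of Syn1 rose from 1193 ± 50.9 to 1567 ± 171 CPM (SD, n = 5 each), a log2 fold change of 0.39 ± 0.08 (SE; 95% interval 0.21 to 0.57; adjusted p = 0.026). Leaving out untreated replicate 3 (adjusted p = 0.0762) or RG2833 replicate 1 (0.0544), 2 (0.062), 4 (0.0548) or 5 (0.0702) ended the call of Syn1. Its paralogue Syn2 was at 452, 441, 593, 442 and 689 CPM in the untreated and at 633, 505, 476, 514 and 587 CPM in the RG2833 animals. These ranges of Syn2 overlapped, with a log2 fold change of 0.05 (95% interval -0.24 to 0.35; adjusted p = 0.843). Over the fits that left out an animal, the Syn2 value ran from -0.0072 to 0.17. Syn3, at 2.87 to 7.01 CPM over all animals, had a log2 fold change of 0.34 (adjusted p = 0.385).

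Stx7 encodes a syntaxin of late endosomes and lysosomes, which works in fusion of endosomes rather than at the active zone. It was at 160, 167, 164, 153 and 161 CPM in the untreated and at 137, 131, 134, 143 and 129 CPM in the RG2833 animals. All RG2833 animals were below all untreated animals, and both groups were tight. The mean fell from 161 ± 5.19 to 135 ± 5.41 CPM (SD, n = 5 each), a log2 fold change of -0.26 ± 0.06 (SE; 95% interval -0.38 to -0.13; adjusted p = 0.0328). The call of Stx7 ended in 7 of the 10 fits that left out an animal: without untreated replicate 1 (adjusted p = 0.0568), 2 (0.0559) or 3 (0.0794), and without RG2833 replicate 1 (0.0643), 2 (0.0867), 3 (0.0853) or 5 (0.0953). The sign of all 3 called members was kept in each of the 10 fits. Where the fit took the ribosomal RNA share as covariate, the log2 fold changes were 0.43 for Cplx2, 0.46 for Syn1 and -0.19 for Stx7, and no member and 2 of all 11791 genes were called. With the excitatory neuron marker score as a covariate, they were 0.35, 0.45 and -0.19, and no member and 6 of all genes were called. Both covariates differed between the groups, so that they and the treatment cannot be told apart.

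**Figure D2:**
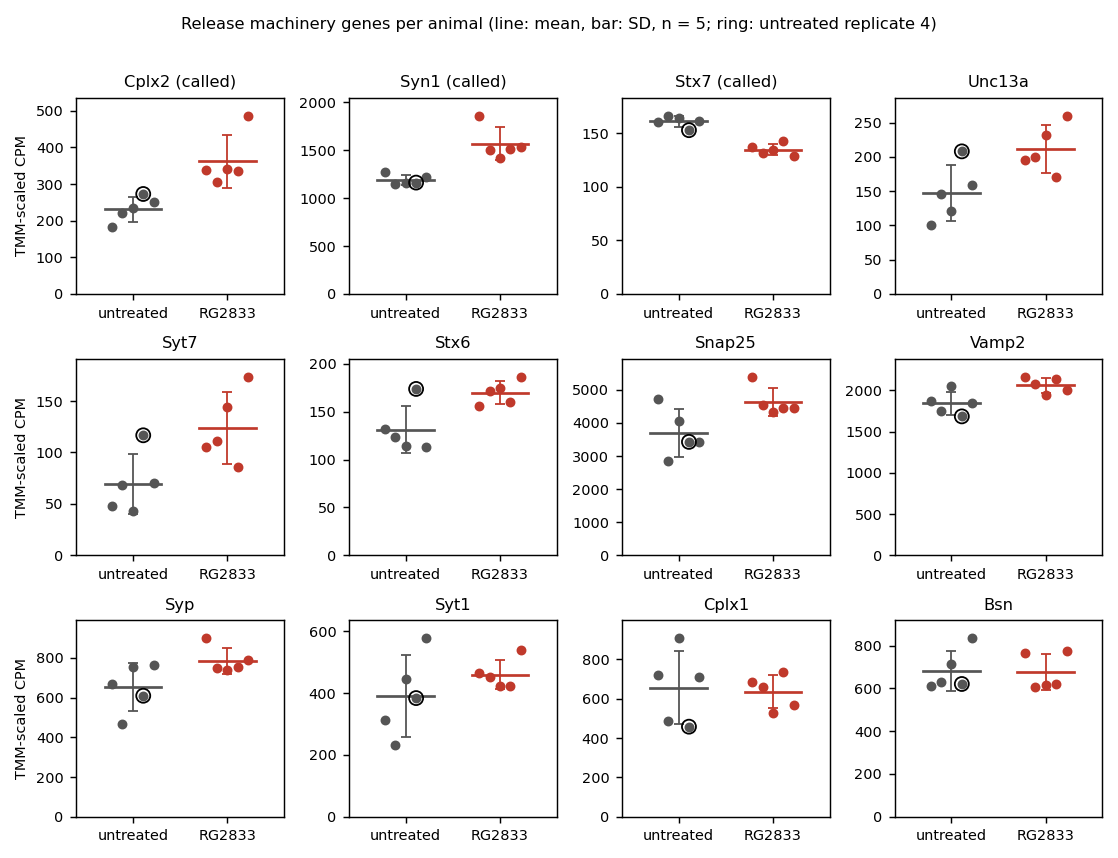
TMM-scaled CPM of 12 members in each animal (points), with the group mean (line) and SD (bar), n = 5 a group and axes from 0. Cplx2, Syn1 and Stx7 show no overlap between groups, and the ringed untreated replicate 4 has the highest untreated values of Unc13a, Syt7 and Stx6.

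Among the other SNAREs of endosomes, lysosomes, the Golgi and the endoplasmic reticulum, none was called, so that this role had 1 call in 13 tested genes. Its median log2 fold change was -0.07, and 10 of the 13 were negative. The members nearest to the threshold went in both directions. Stx6, a syntaxin of the trans-Golgi network, was at 131 ± 24.9 CPM in the untreated and 170 ± 11.9 CPM in the RG2833 animals (SD, n = 5 each; log2 fold change 0.37, adjusted p = 0.0737). Vamp4, a trans-Golgi and endosomal vesicle SNARE that also takes part in bulk retrieval of vesicle membrane, was at 60.8 ± 3.51 and 52.8 ± 2.12 CPM (log2 fold change -0.20, adjusted p = 0.0793). Vamp3, the endosomal cellubrevin, had a log2 fold change of -0.24 and Vamp7, a late endosomal SNARE found in axons, one of 0.29, with adjusted p of 0.187 and 0.174. The remaining 8, Snap29, Stx5, Stx8, Stx12, Stx16, Stx17, Stx18 and Vamp8, had log2 fold changes between -0.42 and 0.01.

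The SNAREs that drive transmitter release themselves had no call in 5 tested genes, with a median log2 fold change of 0.17. Snap25, the plasma membrane SNARE cleaved by botulinum toxin A, was at 4724, 2858, 4047, 3428 and 3431 CPM in the untreated and at 5391, 4546, 4328, 4462 and 4453 CPM in the RG2833 animals. Only untreated replicate 1 reached into the RG2833 range, and the log2 fold change of 0.33 (95% interval 0.05 to 0.60) had an unadjusted p of 0.0231 and an adjusted p of 0.136. Vamp2, the main vesicle SNARE of the forebrain, was at 1873, 1750, 2059, 1685 and 1852 CPM in the untreated and at 2164, 2077, 1943, 2135 and 2009 CPM in the RG2833 animals. Here untreated replicate 3 overlapped with the RG2833 animals, and the log2 fold change of 0.16 did not pass (adjusted p = 0.206). Stx1a encodes a plasma membrane syntaxin of the release complex. It was at 204, 210, 213, 150 and 182 CPM in the untreated and at 213, 173, 161, 181 and 173 CPM in the RG2833 animals. The groups overlapped, with a log2 fold change of -0.09 (95% interval -0.32 to 0.14; adjusted p = 0.632). Vamp1, a close relative of Vamp2, had a log2 fold change of 0.17 (adjusted p = 0.536), which was 0.043 without untreated replicate 2 and 0.28 without untreated replicate 3. Of 8 plasma membrane SNAREs of broader expression, 5 were tested (Snap23, Snap47, Stx2, Stx3 and Stx4), with log2 fold changes between -0.17 and 0.15 and no call.

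Syntaxin-binding proteins had no call in 7 tested genes, a median log2 fold change of 0.30 and 5 positive values. Stxbp5 and Stxbp5l encode tomosyns, which bind syntaxin and restrain release. Stxbp5l was at 12.6, 11.1, 14.2, 20.1 and 22.5 CPM in the untreated and at 25.2, 19.5, 22.9, 16.9 and 34.4 CPM in the RG2833 animals (log2 fold change 0.56, adjusted p = 0.145). Stxbp5 was at 80.2 ± 20.01 and 105 ± 16.8 CPM (SD, n = 5 each; log2 fold change 0.39, adjusted p = 0.152). In both tomosyn genes untreated replicates 4 and 5 lay within the RG2833 range. Stxbp3, a broadly expressed member that binds Stx4, had a log2 fold change of -0.23 (adjusted p = 0.183). Stxbp2, Stxbp4 and Stxbp6 had log2 fold changes of -0.19, 0.30 and 0.47, none called. Over the fits that left out an animal, Stxbp2 changed sign (-0.31 to 0.03), while Stxbp4 and Stxbp6 kept theirs.

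Calcium-binding synaptotagmins had no call in 8 tested genes, although the highest and the lowest fold change of the uncalled members were both found here. Syt1, the fast calcium sensor of forebrain synapses, was at 314, 231, 445, 384 and 577 CPM in the untreated and at 464, 451, 424, 422 and 539 CPM in the RG2833 animals. The untreated animals spread on both sides of the RG2833 animals, and the log2 fold change was 0.24 (95% interval -0.18 to 0.65; adjusted p = 0.473). Without untreated replicate 2 the value for Syt1 was 0.096 and without untreated replicate 5 it was 0.42. Syt7, the slow sensor of asynchronous release and facilitation, was at 47.9, 68.2, 43.0, 117 and 70.0 CPM in the untreated and at 105, 111, 144, 85.4 and 173 CPM in the RG2833 animals. All RG2833 animals were above the untreated animals other than replicate 4, and the log2 fold change over all animals was 0.84 ± 0.26 (SE; 95% interval 0.28 to 1.39; adjusted p = 0.0758). Syt9 was at 1.72, 2.60, 3.06, 0.652 and 6.35 CPM in the untreated and at 1.14, 0.803, 0.723, 1.24 and 0.942 CPM in the RG2833 animals. These are low levels, of a fast calcium sensor known from striatal and limbic neurons, with untreated replicate 4 the lowest of all 10. Its log2 fold change was -1.55 ± 0.48 (SE; 95% interval -2.60 to -0.50; adjusted p = 0.0786). Syt2, Syt3, Syt5, Syt6 and Syt10 had log2 fold changes between -0.26 and 0.24, all with adjusted p of 0.413 or more.

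Of 7 other synaptotagmins, most of which do not bind calcium in the usual way, 5 were tested and none was called. Syt17 was at 93.3, 113, 150, 75.3 and 144 CPM in the untreated and at 109, 82.1, 67.2, 90.1 and 68.2 CPM in the RG2833 animals. The ranges of Syt17 overlapped, with untreated replicates 1 and 4 inside the RG2833 range (log2 fold change -0.47, 95% interval -0.88 to -0.06; adjusted p = 0.151). Syt11, at 236 ± 75.8 and 327 ± 49.8 CPM (SD, n = 5 each), had a log2 fold change of 0.47 (adjusted p = 0.149). Syt13, Syt12 and Syt4 had log2 fold changes of 0.39, 0.12 and 0.04. Over the fits that left out an animal, Syt12 (-0.019 to 0.27) and Syt4 (-0.013 to 0.12) changed sign, while Syt13 (0.30 to 0.60) did not.

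The active zone and priming genes had no call in 9 tested genes, and their median log2 fold change was -0.01. Unc13a, which encodes Munc13-1, the main priming factor of glutamatergic synapses, was at 100, 147, 121, 208 and 158 CPM in the untreated and at 195, 200, 232, 171 and 260 CPM in the RG2833 animals. Only untreated replicate 4 lay inside the RG2833 range, and the log2 fold change was 0.53 ± 0.17 (SE; 95% interval 0.15 to 0.90; adjusted p = 0.0907). With the excitatory neuron marker score as a covariate, the log2 fold change of Unc13a changed sign. Pclo, which encodes Piccolo, was at 163, 156, 184, 204 and 241 CPM in the untreated and at 248, 227, 225, 202 and 275 CPM in the RG2833 animals, with a log2 fold change of 0.31 (adjusted p = 0.14). Its large partner in the active zone, Bsn (Bassoon), was at 610, 629, 715, 620 and 834 CPM in the untreated and at 766, 608, 614, 620 and 774 CPM in the RG2833 animals. The Bsn ranges overlapped, with a log2 fold change of -0.01 (95% interval -0.25 to 0.23). Rims1, which encodes the scaffold that brings vesicles to calcium channels, was at 207, 365, 223, 212 and 265 CPM in the untreated and at 248, 256, 229, 262 and 322 CPM in the RG2833 animals. Untreated replicate 2 was the highest of all animals for Rims1 and the log2 fold change was 0.05 (95% interval -0.28 to 0.38), and without that animal it was 0.22 (adjusted p = 0.269). The remaining 5, Rims2, Rims3, Rims4, Unc13b and Unc13c, had log2 fold changes between -0.22 and 0.05.

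Vesicle membrane proteins had no call in 4 tested genes. Syp, which encodes synaptophysin, was at 668, 469, 753, 610 and 767 CPM in the untreated and at 899, 751, 737, 754 and 791 CPM in the RG2833 animals. Untreated replicates 3 and 5 overlapped with the RG2833 animals, and the log2 fold change was 0.27 (unadjusted p = 0.0487, adjusted p = 0.201). Over the fits that left out an animal, the Syp value ran from 0.17 to 0.33. Sv2a, the vesicle protein bound by levetiracetam, was at 378, 308, 397, 372 and 460 CPM in the untreated and at 405, 396, 396, 378 and 404 CPM in the RG2833 animals. Its groups overlapped, and the log2 fold change was 0.05 (95% interval -0.15 to 0.25; adjusted p = 0.79). Sv2b, a relative enriched in glutamatergic terminals, was at 502 ± 176 and 435 ± 51.8 CPM (SD, n = 5 each), a log2 fold change of -0.21 (adjusted p = 0.577), which was -0.37 without untreated replicate 2 and -0.060 without untreated replicate 3. With the general neuron marker score as a covariate, the log2 fold change of Sv2b was -0.43 (adjusted p = 0.0255), and that of Syt7 was 1.06 (adjusted p = 0.0394). Of the recycling factors, Nsf, the ATPase that separates used SNARE complexes, was at 753, 591, 906, 766 and 1013 CPM in the untreated and at 963, 849, 845, 852 and 939 CPM in the RG2833 animals. Snap91, which encodes the clathrin adaptor AP180, was at 308, 286, 350, 314 and 431 CPM in the untreated and at 387, 349, 360, 357 and 410 CPM in the RG2833 animals. In both, untreated replicate 2 was the lowest and replicate 5 the highest of all animals, and each log2 fold change was 0.14 (adjusted p of 0.501 and 0.431). Without untreated replicate 2 they were 0.050 for Nsf and 0.088 for Snap91, and without untreated replicate 5 they were 0.24 and 0.25.

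The same few animals stood apart in many members. Untreated replicate 2, with the lowest neuron score, had the lowest level of all animals for Snap25, Syt1, Vamp1, Sv2b, Syp, Nsf and Snap91, and the highest for Rims1, Unc13c and Cplx3. The summed level of all members was 13995 CPM in this animal, 15638 CPM in untreated replicate 4 and 17267 to 17996 CPM in the other untreated animals, against 17692 to 20706 CPM in the RG2833 animals. Members took 1.66 ± 0.168% of counts in untreated and 1.88 ± 0.105% in RG2833 animals (SD, n = 5 each), with overlapping ranges. The median coefficient of variation (SD as a percent of the mean) of the 64 members was 19.0% in untreated and 11.7% in RG2833 animals. Over all tested genes it was 14.96% and 10.02%, so that the untreated animals varied more among themselves in general. In Sv2a it was 14.3% and 2.73%. In the called members it was higher in the RG2833 animals: 14.7% and 19.8% in Cplx2, 4.27% and 10.9% in Syn1, and 3.23% and 4.02% in Stx7.

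**Figure D3:**
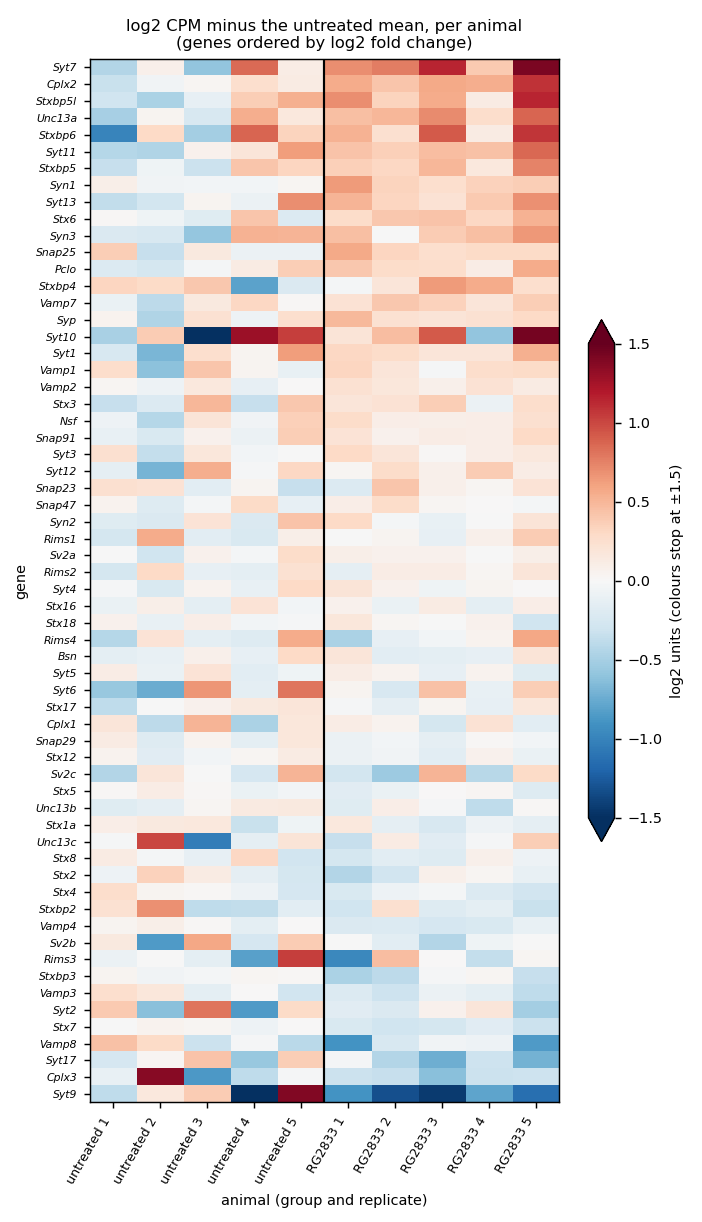
Log2 CPM of each of 62 members minus its untreated mean (colour, from -1.5 to 1.5 log2 units) in the 10 animals, ordered by log2 fold change from Syt7 (0.84) to Syt9 (-1.55). Untreated replicate 4 is the highest untreated column for Syt7 and the lowest for Syt9.

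Untreated replicate 4 lay among the RG2833 animals over all genes, and the calls were recomputed without it. Because the animal was picked for its likeness to the RG2833 group, a rise in calls follows from that choice, and the values are a description. In that fit 13.1% of 11849 tested genes were called, 6.84% higher and 6.3% lower, and 10 of 64 members (15.6%) were called, 6 higher and 4 lower. The same 3 members were among them. The added members, chosen for mention after their values were seen, were Syt7 (log2 fold change 1.11, adjusted p = 0.00621), Unc13a (0.69, 0.0111), Stxbp5 (0.51, 0.0426) and Stx6 (0.49, 0.00296) on the higher side. On the lower side they were Syt9 (-1.81, 0.00967), Syt17 (-0.59, 0.0352) and Vamp4 (-0.24, 0.0306). Untreated replicate 4 had the highest untreated level of each of the 4 higher genes: 117 CPM for Syt7, 208 CPM for Unc13a, 105 CPM for Stxbp5 and 174 CPM for Stx6. It had the lowest untreated level of each of the lower genes as well. Leaving out another animal gave between 0 and 6 called members. Without untreated replicate 5 there were 6 (Cplx2, Syn1, Stx7, Pclo, Syt11 and Syt13), 2 without RG2833 replicate 4, 1 each without untreated replicates 1 and 2 and RG2833 replicates 2 and 3, and none without untreated replicate 3 or RG2833 replicates 1 and 5. Call rates over all genes moved alongside, from 0.826% to 13.1%.

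**Figure D4:**
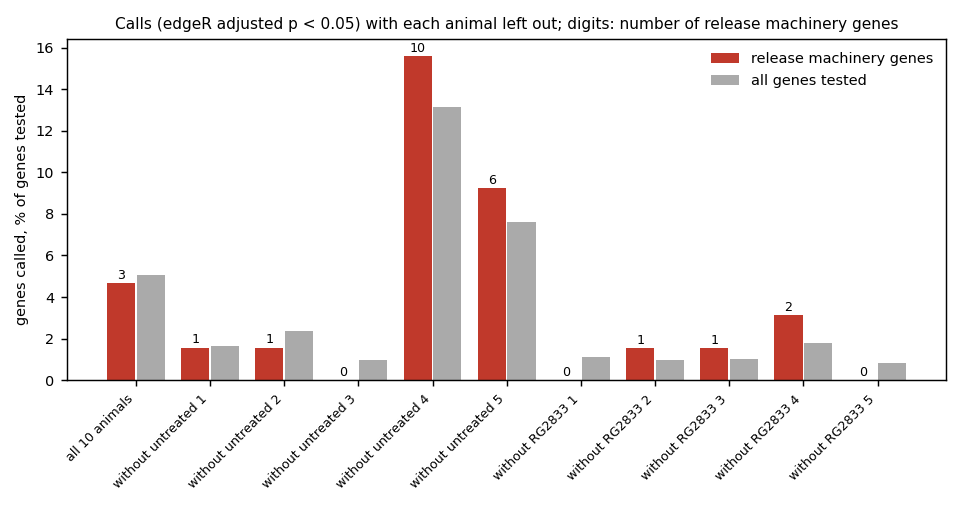
Percent of tested genes called (edgeR adjusted p under 0.05) among members and among all genes, with all animals and with each animal left out; digits give the number of members called. Both shares are highest without untreated replicate 4 (15.6% and 13.1%).

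Relative use of paralogues was measured as the log2 ratio of counts of 10 gene pairs in each animal, which a library's scaling does not touch. The ratios are not corrected for gene length, so only their difference between groups is read. None of the 10 passed an adjusted p of 0.05 (two-sided exact permutation test, 5 against 5, smallest possible p of 0.00794, Benjamini-Hochberg over 10 ratios), while 3 had an unadjusted p under 0.05. The ratio of Unc13b to Unc13a was 0.233, 0.166, 0.226, 0.140 and 0.187 in untreated and 0.120, 0.143, 0.113, 0.119 and 0.104 in RG2833 animals. Only untreated replicate 4 lay within the RG2833 range, and the difference was -0.65 log2 units (exact p = 0.0159, adjusted p = 0.106). The ratio of Pclo to Bsn was 0.267, 0.249, 0.257, 0.330 and 0.290 in untreated and 0.324, 0.373, 0.368, 0.326 and 0.355 in RG2833 animals. Its difference was 0.33 log2 units (exact p = 0.0238, adjusted p = 0.106), with untreated replicate 4 again in the RG2833 range. The ratio of Syn1 to Syn2 differed by 0.32 log2 units (exact p = 0.0317, adjusted p = 0.106). That of Cplx1 to Cplx2 was 3.96, 2.196, 3.88, 1.68 and 2.84 in untreated and 2.02, 2.15, 1.55, 2.18 and 1.17 in RG2833 animals, a difference of -0.64 log2 units (exact p = 0.0556, adjusted p = 0.139). Without untreated replicate 4, the ratios of Cplx1 to Cplx2 (-0.82), Unc13b to Unc13a (-0.75) and Pclo to Bsn (0.39) passed, and without any other animal none did. Removing the animal that lay nearest to the RG2833 group widens the difference by construction, so this count is no support for it. Of the other pairs, Vamp1 to Vamp2, Snap23 to Snap25, Syt2 to Syt1, Sv2b to Sv2a and Rims2 to Rims1 differed by between -0.43 and 0.04 log2 units, with exact p of 0.254 or more.

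**Figure D5:**
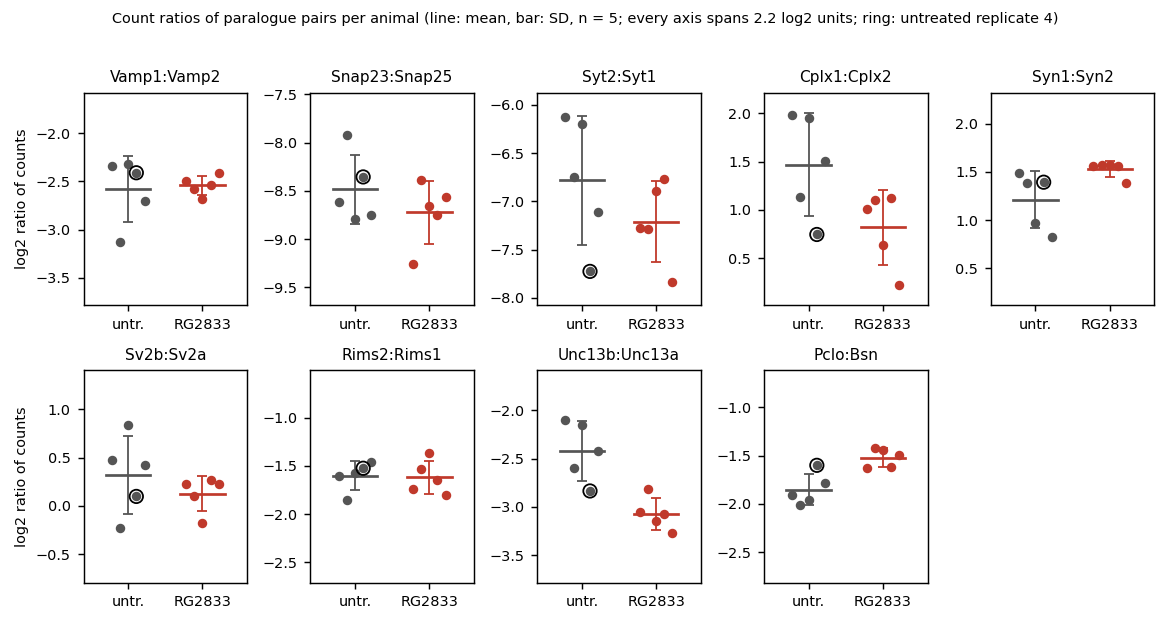
Log2 count ratios of 9 paralogue pairs in each animal (points), with the mean (line) and SD (bar), n = 5 a group; every axis spans the same 2.2 log2 units and the ring marks untreated replicate 4. Group means differ by -0.65 for Unc13b to Unc13a and by 0.33 for Pclo to Bsn, the groups overlap in both, and neither passed (adjusted p = 0.106 in the exact permutation test).

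Other presynaptic genes of the same pathway were followed through a list of 71 genes that the symbol rule did not take. Of these 67 were tested and 1 was called (1.49%, against 5.08% of all genes): Prrt2, which encodes a membrane protein that binds SNAREs and is mutated in paroxysmal dyskinesia. Prrt2 was at 246, 215, 198, 268 and 202 CPM in the untreated and at 345, 303, 323, 304 and 322 CPM in the RG2833 animals, without overlap. It rose by 0.50 ± 0.09 on the log2 scale (SE; adjusted p = 0.0159) and was called in all 10 fits that left out an animal. The call of Prrt2 was lost with the ribosomal RNA share or the excitatory neuron score as covariate. Positive log2 fold changes were found in 53 of the 67 (79.1%, against 49.4% of all genes), with a median of 0.18 (all genes, -0.003), and 19 (28.4%, against 24.5% of all genes) had an unadjusted p under 0.05, 17 higher and 2 lower. In 9 genes (13.4%, against 3.80% of all genes) every RG2833 animal was above every untreated animal: Prrt2, Ppfia3, Syngr2, Svop, Slc17a7, Slc17a8, Itsn1, Ap2a1 and Clta.

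By role, 14 of 14 other active zone scaffolds (Erc, liprin, neurexin and related genes) and 11 of 12 tested priming and SNARE recycling cofactors had positive values, with medians of 0.23 and 0.20. Among 19 vesicle endocytosis genes 15 were positive (median 0.16), and among 15 other vesicle membrane genes 9 were (median 0.11). Of 7 tested vesicle transmitter transporters 4 were positive, with a median of 0.05. Slc17a7, which encodes the vesicular glutamate transporter VGLUT1 and also belongs to the excitatory neuron markers, was at 1626 ± 219 CPM in the untreated and 2081 ± 189 CPM in the RG2833 animals (SD, n = 5 each; log2 fold change 0.36, adjusted p = 0.0689). Slc17a6, which encodes VGLUT2, was at 14.8 ± 3.00 and 9.46 ± 2.89 CPM (log2 fold change -0.64, adjusted p = 0.0861). Without untreated replicate 4, 14 of the 67 (20.9%) were called, 12 higher and 2 lower, while 13.1% of all genes were called in that fit. The summed excitatory neuron markers, given above and mostly Slc17a7, did not overlap between the groups. The score of these markers and the treatment cannot be told apart. With that score as covariate, none of the 67 and 6 of all genes were called.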

How the data were processed

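mRNA of the left hippocampus of 10 rats, 5 a group, was sequenced from strand-specific libraries, per the labels' protocols. The submitters' processing notes name bcl2fastq 2.17, Bowtie2 2.1.0, RSEM 1.2.15, edgeR and the genome build rn6. The annotation and the strand setting of the counting are not given in the sources used here. The authors deposited RSEM expected counts per gene without normalization, and a TMM-scaled signal in which all non-zero values were whole multiples, within 0.01 of a step, of the library's smallest non-zero value (0.0892 to 0.114). Expected counts were rounded, and filterByExpr with the group kept 11791 genes.

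Groups were compared by quasi-likelihood tests in edgeR 4.0.16 (R 4.3.3), without covariates and after TMM scaling, with p-values adjusted by Benjamini-Hochberg over all tested genes. CPM is TMM-scaled, and the SE is that of the log2 fold change. Intervals are 95% and do not cover multiple testing. The test was checked on simulated data. Ratios used rounded counts plus 0.5. Every member could be named. Values in each animal were given for called members, for a list of core genes and for the 3 highest and 3 lowest uncalled fold changes. Outside this rule, they were also given for Syn2, beside its called paralogue Syn1. The members and lists were chosen with earlier results of these data known. The results of 2 members and of 1 ratio are not reported here, although they are counted. Alternatives were DESeq2 1.42.0 (size factors and Wald test), library totals, filters, limma 3.58.1 (voom, and trend on the deposited signal plus 1 or 0.1), covariates, a replicate block, an adjusted p under 0.1 and leaving out each animal.

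Libraries held 8764245 to 11311652 counts. The floor of 3 counts covers counting error only. Within groups, the chi-square per degree of freedom of 20 library pairs was 4.72 to 38.1, so none of these pairs was a duplicate, and pairs across groups were not compared. Promoter windows came from RefSeq (GRCr8), a later build than that of the counts. Only the bases before the start are printed.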

Additional observations from a re-analysis of the deposited data

Results flagged for a closer look

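Values were examined for 1 animal standing far from the other 4 of its group, by Dixon's test at the 95% level, over 148 groups of 5. Chance alone gives about 1 in 20, or 7.4, and 9 were found. RG2833 replicate 5 was high for Cplx2 at 487 CPM (others 306 to 340) and for Syt11 at 414 CPM (others 291 to 314), and its log2 ratio of Syn1 to Syn2 was low at 1.38 (others 1.56 to 1.58). RG2833 replicate 1 was high for Syn1 at 1863 CPM (others 1421 to 1534) and for Snap25 at 5391 CPM (others 4328 to 4546). RG2833 replicate 2 was high for Stxbp2 at 5.08 CPM (others 3.35 to 3.83), and RG2833 replicate 3 was low for Cplx3 at 7.75 CPM (others 9.45 to 9.73). Untreated replicate 2 was high for Cplx3 at 31.6 CPM (others 6.58 to 11.95), and untreated replicate 5 for Rims3 at 8.25 CPM (others 2.14 to 3.896).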

How the results depend on the processing

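The 3 called members were the same 3 with library totals only, DESeq2 size factors, either filter (none, or a mean count from 50 up), limma-voom and limma trend on the signal. DESeq2's Wald test called 8 members (5 higher; 12.5%, against 10.9% of all genes), and an adjusted p under 0.1 gave 8 (5 higher; 12.5%, against 12.4%). The neuron score covariate gave 5 (7.81%, against 6.17%). The ribosomal RNA share covariate gave 0 (0 higher; 2 of all genes), as did the excitatory neuron score covariate (0 and 0 higher; 6 of all genes), which was added after seeing the data. Leaving out 1 animal gave 0 to 10 called members (0 to 6 higher), 1 to 14 called companion presynaptic genes and 0 to 3 paralogue ratios. Of the 67 companion genes, 2 were called with DESeq2 size factors (2.99%, against 5.11% of all genes) and 12 with the Wald test (17.9%, against 10.9%). Limma trend on signal plus 1 and 0.1 called 3 and 2 (4.48% and 2.99%, against 5.16% and 4.89%). The neuron covariate gave 5 (7.46%, against 6.17%), an adjusted p under 0.1 gave 11 (16.4%, against 12.4%), and either of the ribosomal RNA and excitatory covariates gave 0.

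The replicate block, which pairs equal replicate numbers, gave 1 called member (1 higher, Cplx2; 1.56%, against 1.53% of all genes). The numbers name different animals, same-numbered animals correlated between -0.32 and 0.15, and 1 of 5 untreated animals correlated best with its own number.

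Log2 fold changes changed sign with the ribosomal RNA share covariate for Stx1a (0.30), Syt1 (-0.035), Cplx1 (0.28), Bsn (0.034), Sv2a (-0.11), Cplx3 (0.46), Syt17 (0.22), Stxbp5l (-0.030) and Stxbp5 (-0.061). With the excitatory covariate they did so for Stx1a (0.20), Cplx1 (0.42), Unc13a (-0.029) and Stxbp5 (-0.10), and with the neuron covariate for Sv2a (-0.027). Over fits without 1 animal, 19 of the 64 members changed sign at least once. Core genes among them were Cplx1 (-0.15 to 0.092), Rims1 (-0.032 to 0.22), Bsn (-0.063 to 0.072), and Sv2a (-0.021 to 0.12), and the ratios of Vamp1 to Vamp2 and Rims2 to Rims1 did so too (-0.096 to 0.11 and -0.076 to 0.032). The cause was not tested. Intervals were wide for low members such as Syt10 (1.04 CPM in untreated animals, 95% interval of its log2 fold change -1.11 to 1.58), and counting error and spread between animals were not separated there.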

Other observations

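The 6 members that were not tested had few counts. Cplx4 had 23 counts in untreated replicate 4 and 0 to 3 in the other untreated animals, against 2 to 13 in RG2833 animals. Vamp5 had 4 to 19 counts over all animals, Stx11 1 to 10, Syt15 1 to 8, Syt8 1 to 6 and Stx19 0 to 6. With no filter on low counts all 70 members were tested, and the called members were again Cplx2, Syn1 and Stx7.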
